A study of Arabidopsis thaliana with 9 samples.

Results

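The comparison set rosettes of an F1 hybrid of Arabidopsis thaliana, labelled F1(C24xCol), against rosettes of its parent accession C24, to ask which transcripts the hybrid carried at higher or lower levels than that parent. Its members were assigned by their labels and are 6 of the 9 arrays of the series, 3 of F1 and 3 of C24. The other 3 arrays, of the second parent Col-0 (called Col here), entered the estimate of the spread between replicates, and their levels are given after those of F1 and C24. All plants were grown on Murashige and Skoog agar plates at 22 °C with a 12 h photoperiod and harvested as whole rosettes 15 days after sowing, with no other treatment or transgene in the labels. Each replicate is called biological in the labels. How many plants made up a sample, the hour of harvest, any batches of array processing and the seed parent of the cross were not stated in the sources used here.

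An F1 plant carries 1 allele of each gene from either parent, so a transcript that differs between the parents can take any level in the hybrid. Arabidopsis leaves defend themselves through salicylic acid, which governs many responses to pathogens that feed on living cells, and through jasmonate and ethylene, which govern the antimicrobial peptides of the PDF1.2 family. C24 is known as an accession with raised basal defence. The endoplasmic reticulum (ER) folds the proteins that are secreted to the wall or stored in the vacuole. In Arabidopsis and its relatives it also forms ER bodies, spindle-shaped compartments filled with beta-glucosidases that meet their substrates when a cell is broken; they are abundant in roots and seedlings and rarer in rosette leaves.

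Signals are MAS5 signals, linear brightness values with 1 per probe set and array. Differences are on the log2 scale, F1 minus C24, with the standard error (SE) from limma, and adjusted p-values come from limma with Benjamini-Hochberg adjustment over all probe sets tested. Medians of the 9 arrays ran from 159 to 174, and their trimmed means were alike at about 500.05, so each difference is relative to the rest of its array. Leaf transcripts were among the brightest: RCA, the activase of Rubisco, had signals of 37123, 38396 and 34860 in F1 and 31637, 32933 and 30458 in C24. LHCB4.1, an antenna protein of photosystem II, had 35660, 33935 and 33325 in F1 and 31216, 31144 and 29386 in C24. The 4 leaf markers named by the annotation summed to 97659 to 103401 in F1 and 82486 to 88348 in C24, a sum made almost whole by RCA, LHCB4.1 and LHCB4.2. LHCB4.3, the dim remaining marker, had 1481, 1247 and 1348 in F1 and 1623, 1741 and 1567 in C24, a difference of -0.28 that did not pass (adjusted p = 0.0694). Of the stomatal markers named, FMA and STOMAGEN passed the filter, while MUTE and SPCH stayed below it. CLV3, the 1 marker of the shoot meristem that was named, stayed below the filter. In such bulk samples fewer cells of a type and less RNA per cell cannot be told apart. The probes of this array type were designed on the Col genome, so for a low C24 signal less transcript and a C24 sequence that binds the probes less well cannot be told apart here.

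Relative to C24, the hybrid carried far more transcript of the wall protein gene ECS1. The same held for 4 of the 6 genes tested of ER bodies and their beta-glucosidase complexes. The hybrid carried less transcript of defensin, chitinase and other immune genes and of a part of the chloroplast genome. Of 15 ER folding and stress genes 5 were lower, or 2 to 5 over the alternative settings. Of the 13648 probe sets tested, 1951 (14.3%) differed at an adjusted p under 0.05, with 1030 higher in F1 (7.55%) and 921 lower (6.75%). After each array was centred on its median the split was 1243 higher and 722 lower. Most differences were small. They reached 2-fold in 450 probe sets (3.3%), 257 higher and 193 lower, whereas 407 of the higher and 393 of the lower ones stayed under 1.5-fold. Among the probe sets tested, large differences lay mostly upward. Of these, 29 higher and 15 lower probe sets passed 8-fold, and 14 higher and 3 lower ones passed 16-fold. Of the 257 probe sets at least 2-fold higher, 51 had all C24 signals below 89.9, the filter's signal, and all F1 signals above it. The reverse held for 8 of the 193 lower ones. The filter took the mean over all arrays, Col included. A probe set bright in F1 and Col but dim in C24 therefore passed it more readily than a probe set bright in C24 alone. How far the upward excess of large differences rests on this filter was not tested. Of the 7314 genes that the annotation named, 987 (13.5%) differed, 549 higher (7.51%) and 438 lower (5.99%), and the counts of each gene list below stand against these shares. The lists were chosen with earlier results of these data known, so their counts describe the genes listed and are no independent evidence. The groups did not overlap for 32.9% of the probe sets and 31.9% of the named genes. With 3 arrays against 3 an exact test of a single gene cannot go below p = 0.1.

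**Figure D1:**
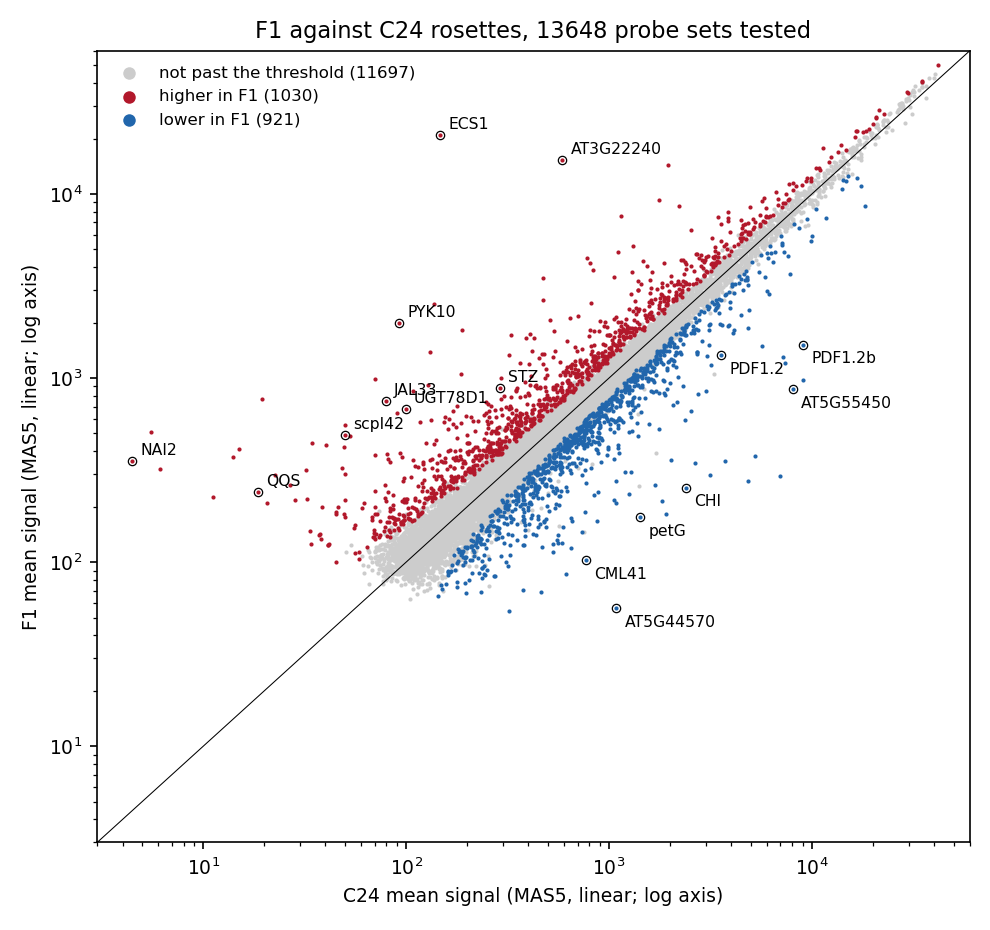
Mean MAS5 signal in F1 (vertical, log axis) against C24 (horizontal, log axis) for the 13648 probe sets tested; red points are higher in F1, blue points lower and grey points not past an adjusted p of 0.05. ECS1 and AT3G22240 lie farthest above the diagonal among bright probe sets, and PDF1.2b, AT5G55450, CHI and AT5G44570 lie far below it.

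The highest ratio of F1 over C24 among named genes was that of ECS1 (AT1G31580), which encodes a small protein of the cell wall. Its signal was 21209, 22149 and 19110 in the F1 arrays, against 161, 157 and 123 in the C24 arrays, and every F1 array stood far above every C24 array. The difference was 7.15 ± 0.11 (SE, adjusted p = 6.91e-16). Col stood at 21099 ± 1322 (SD, n = 3), a level that the F1 arrays bracketed. The second bright gain was AT3G22240, a locus with no further name in the annotation, with 11946, 23494 and 10371 in F1 and 489.9, 438 and 833 in C24. F1 replicate 2 was the brightest of these, and no F1 array came near the C24 range. The difference was 4.66 ± 0.31 (SE, adjusted p = 6.61e-08), and Col, at 1078 ± 392 (SD, n = 3), was itself well below F1.

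The remaining genes among the 12 highest ratios were dim in C24. AT1G23960 had signals of 477, 544 and 503 in F1 and 6.23, 5.84 and 4.57 in C24, and AT5G45500 had 361, 336 and 267 in F1 and 7.55, 5.8 and 4.91 in C24. Neither gene's groups overlapped. Signals this low have little meaning in order or ratio: with all signals below 32 raised to 32, the difference of AT1G23960 was 3.99 in place of 6.53 and that of AT5G45500 was 3.32 in place of 5.73. The serine carboxypeptidase-like gene scpl42 (AT5G42240) had 472, 484 and 519 in F1 against 76.5, 3.81 and 69.4 in C24, and its difference of 4.17 ± 0.75 (SE, adjusted p = 0.0014) became 2.75 without C24 replicate 2, 4.92 without C24 replicate 1 and 4.85 without C24 replicate 3. QQS (AT3G30720), a gene found in Arabidopsis only, whose loss raises leaf starch, had 280.3, 162 and 277 in F1 and 26.3, 4.02 and 25.5 in C24. Its difference was 4.06 ± 0.56 (SE, adjusted p = 0.000141) and 3.17 without C24 replicate 2. For AT4G16880 and AT4G19500 too the size hung on single dim C24 arrays, at 4.49 without C24 replicate 3 and 5.97 without C24 replicate 1 for AT4G16880, and at 3.45 without C24 replicate 2 and 4.76 without C24 replicate 1 for AT4G19500. 2A6 (AT1G03410) and AT4G02850 completed the 12, with differences of 4.37 and 3.75.

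**Figure D2:**
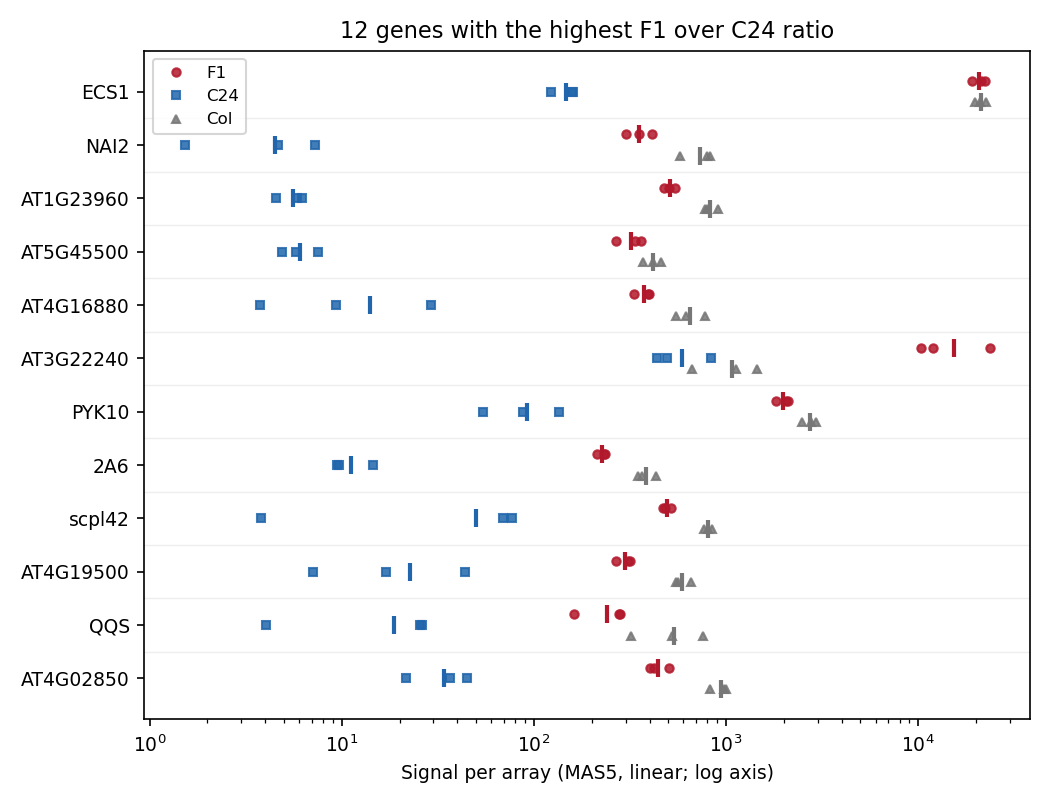
MAS5 signal on each array (log axis) for the 12 named genes with the highest F1 over C24 ratio; each symbol is 1 array of F1, C24 or Col and the upright mark is the group mean. F1 and C24 do not overlap for any of the 12, and C24 signals of NAI2, AT1G23960 and AT5G45500 lie below 10.

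Ranked by the difference of mean signal among genes at least 1.5-fold higher, the first 6 gains were ECS1, AT3G22240, AT4G27280, AT1G62510, AT2G25450 and AT3G49910. AT2G25450 had 4783, 4601 and 5175 in F1 and 953, 1058 and 1315 in C24, a difference of 2.14 ± 0.11 (SE, adjusted p = 3.65e-09). AT1G62510 had 4965, 4756 and 3822 in F1 and 377, 1353 and 603 in C24, a difference of 2.73 ± 0.31 (SE, adjusted p = 2.19e-05). For both the lowest F1 array was above the highest C24 array, and Col was at 6564 ± 233 and 4531 ± 901 (SD, n = 3 each). AT3G49910 rose less, by 1.63-fold.

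Most genes measured on the list of ER bodies and their beta-glucosidase complexes rose. Its tested members were NAI2, PYK10 and jacalin-related lectins of the PYK10 complex. Of the 7 genes that the annotation named, 6 were tested, and 4 rose while none fell. The list's median difference was 3.21, beside -0.02 over all genes tested. NAI2 and the lectins JAL33 and JAL22 had signals below 89.9 on every C24 array, so they passed the filter through F1 and Col. The list was also chosen with earlier results of these data known. Its count and median are therefore no independent evidence of a gain. NAI2 (AT3G15950), a protein that ER bodies need in order to form, had signals of 301, 351 and 409 in F1 and 1.52, 7.27 and 4.63 in C24. The groups lay far apart, but the C24 arrays were at the bottom of the scale, and the difference of 6.56 ± 0.43 (SE, adjusted p = 7.43e-08) was 3.46 with the floor of 32 and 5.92 without C24 replicate 1. PYK10 (AT3G09260), the main beta-glucosidase stored in ER bodies, had 1823, 2045 and 2089 in F1 and 87.3, 135 and 54.1 in C24. Every F1 array was far above the brightest C24 array, with a difference of 4.53 ± 0.22 (SE, adjusted p = 3.37e-09). A pair of jacalin-related lectins of the PYK10 complex followed. JAL33 (AT3G16450) had 773, 711 and 760.2 in F1 against 84.9, 78.7 and 74.9 in C24, and JAL22 had 555, 446 and 453 in F1 against 56, 57.2 and 45.5 in C24; both rose with no overlap, by 9.42-fold and 9.16-fold. The other lectins tested did not pass: JAL34 had a difference of 0.02 and JAL23 one of -0.42. Col means were 732 ± 139 for NAI2, 2726 ± 219 for PYK10, 543 ± 156 for JAL33 and 883 ± 201 for JAL22 (SD, n = 3 each).

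PYK10 is also abundant in roots. Of 3 root markers named by the annotation it was the 1 that passed the filter; both others, the loci AT4G30170 and AT5G17820, lay between 3.68 and 43.6 on the F1 arrays and between 3.83 and 50.1 on the C24 arrays. The summed root markers were 1870 to 2108 in F1 and 63.1 to 164 in C24, a gap that PYK10 made up almost whole. Across 14 beta-glucosidase and jacalin-related lectin genes tested, 4 rose, PYK10, JAL33, JAL22 and BGLU42 (the call of BGLU42 was lost without F1 replicate 1 or 2 or C24 replicate 1 or 2, adjusted p = 0.0654 to 0.0818), and the remaining 10 had differences from -0.78 to 0.47.

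The protein-folding side of the ER moved the other way and by much less. Of 15 genes for folding, degradation and stress sensing in the ER that were tested, 5 fell, none rose, and the median was -0.24. CRT1b, a calreticulin that retains unfolded glycoproteins, had 1439, 2304 and 2152 in F1 and 3095, 2978 and 3367 in C24. All F1 arrays were below all C24 arrays, with a difference of -0.71 ± 0.14 (SE, adjusted p = 0.00276). ATERDJ3B, a J-domain partner of the chaperone BiP, had 1413, 1535 and 1218 in F1 and 2119, 1983 and 2282 in C24, a difference of -0.62 ± 0.10 (SE, adjusted p = 0.000767). The other members past the threshold were AT5G07340 (-0.57), ATERDJ2B, a J-domain protein of the import channel (-0.50), and BZIP60, a transcription factor of the unfolded protein response (-0.46). AT5G07340 lost its call without F1 replicate 1 or 3 or C24 replicate 3 (adjusted p = 0.0909 to 0.106), ATERDJ2B without F1 replicate 2 or 3 or C24 replicate 1 or 3 (0.0624 to 0.0982), and BZIP60 without any 1 of the F1 arrays or C24 replicate 2 or 3 (0.0569 to 0.1197), and between 2 and 5 of the 15 fell over the alternative settings. PDIL5-1, a protein disulphide isomerase, had 0.09. Of 17 genes of traffic between the ER and the Golgi, PRA1.A1 fell (-0.39) and 16 did not pass; its call was lost without 7 of the 9 arrays in turn (adjusted p = 0.0506 to 0.162).

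Defence genes of the lists read here were prominent among those that fell. No gene name in the annotation matched the lists planned for NLR immune receptors and for receptor-like kinases and proteins, so these were not counted as groups. Genes of these kinds may still be among those measured, under a locus code or another name, and may have risen or fallen. Of the 4 salicylic acid and immune signalling genes tested, 3 fell and none rose (median -1.25), and of a wider list of 26 immune signalling and antimicrobial genes, which contains these, 9 fell and 1 rose (median -0.40), beside 5.99% and 7.51% of all named genes. The wider list was added with earlier results of these data known, and all 26 of its genes passed the filter. Its counts are therefore no independent evidence. CHI (AT2G43570), here a chitinase, had signals of 212, 468 and 82.5 in F1 and 2289, 2145 and 2761 in C24. All F1 arrays were far below all C24 arrays, and the difference was -3.56 ± 0.59 (SE, adjusted p = 0.00068), with -4.17 without F1 replicate 2 and -2.92 without F1 replicate 3. RING1 (AT5G10380), a ubiquitin ligase that acts in programmed cell death, had 743, 1018 and 727 in F1 and 1971, 1619 and 2015 in C24, a difference of -1.18 ± 0.16 (SE, adjusted p = 0.000134). GRX480, a glutaredoxin induced by salicylic acid, had 143, 111 and 51 in F1 and 203, 272 and 231 in C24, a difference of -1.32 ± 0.37 (SE, adjusted p = 0.0274); without F1 replicate 3 the difference was -0.89 and missed the threshold, as it did without any 1 of the C24 arrays. SAG101, a partner of the immune regulator EDS1, did not pass, at -0.50. Col was at 35.4 ± 23.7 for CHI and 549 ± 113 for RING1 (SD, n = 3 each).

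The plant defensins spread widely between the hybrid's replicates. PDF1.2 (AT5G44420) had signals of 135, 3617 and 255 in F1 against 4409, 3354 and 2928 in C24. F1 replicates 1 and 3 were far below C24, while F1 replicate 2 lay within the C24 range. The difference was -2.82 ± 0.77 (SE, adjusted p = 0.023); it was -4.24 without F1 replicate 2, and without F1 replicate 1 it was -1.87 with an adjusted p of 0.107, no longer past the threshold. The call was also lost without F1 replicate 3 (-2.33, adjusted p = 0.102) and without C24 replicate 1 (-2.65, adjusted p = 0.071). PDF1.2b (AT2G26020) had 215, 4070 and 272 in F1 against 11383, 8170 and 7581 in C24, with no overlap. Its difference of -3.84 ± 0.74 (SE, adjusted p = 0.00237) was -5.20 without F1 replicate 2, -3.08 without F1 replicate 1 and -3.25 without F1 replicate 3. Its probe set is of a type that can also bind transcripts of related genes, so the 2 defensins may not be separate measurements. In Col PDF1.2 stood at 79 ± 15.2 and PDF1.2b at 7.67 ± 3.45 (SD, n = 3 each). PDF1.4 had -0.95 and did not pass; without F1 replicate 2 it was -1.40 with an adjusted p of 0.0239. The thionin THI2.2 was bright in both, with 6509, 5943 and 7047 in F1 and 7086, 7399 and 8053 in C24, and did not pass.

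AT5G55450, placed among the lipid-transfer proteins, had 619, 1620 and 381 in F1 and 8317, 8317 and 7508 in C24. F1 replicate 2 was again the highest of the F1 arrays and still far below C24, with a difference of -3.47 ± 0.38 (SE, adjusted p = 1.65e-05). CML41, a calmodulin-like calcium sensor that acts in immunity, had 78.9, 118 and 111 in F1 and 558, 753 and 999 in C24, a difference of -2.89 ± 0.26 (SE, adjusted p = 2.41e-06). The lowest ratio among named genes belonged to AT5G44570, a locus without a name, with 49.7, 64.7 and 55 in F1 and 1169, 828 and 1258 in C24 (difference -4.25 ± 0.23, SE, adjusted p = 9.64e-09). Its F1 arrays lay close to the Col level of 47.3 ± 9.25 (SD, n = 3). AT3G48640, AT2G44380, AT1G10340, AT5G59670 and AT5G39670, also known by locus code alone, fell with differences from -2.82 to -2.24. CSA1, SIZ1 and GAMMA-VPE made up the count of immune genes that fell, and BETA-VPE, a vacuolar processing protease, rose 2.83-fold.

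**Figure D3:**
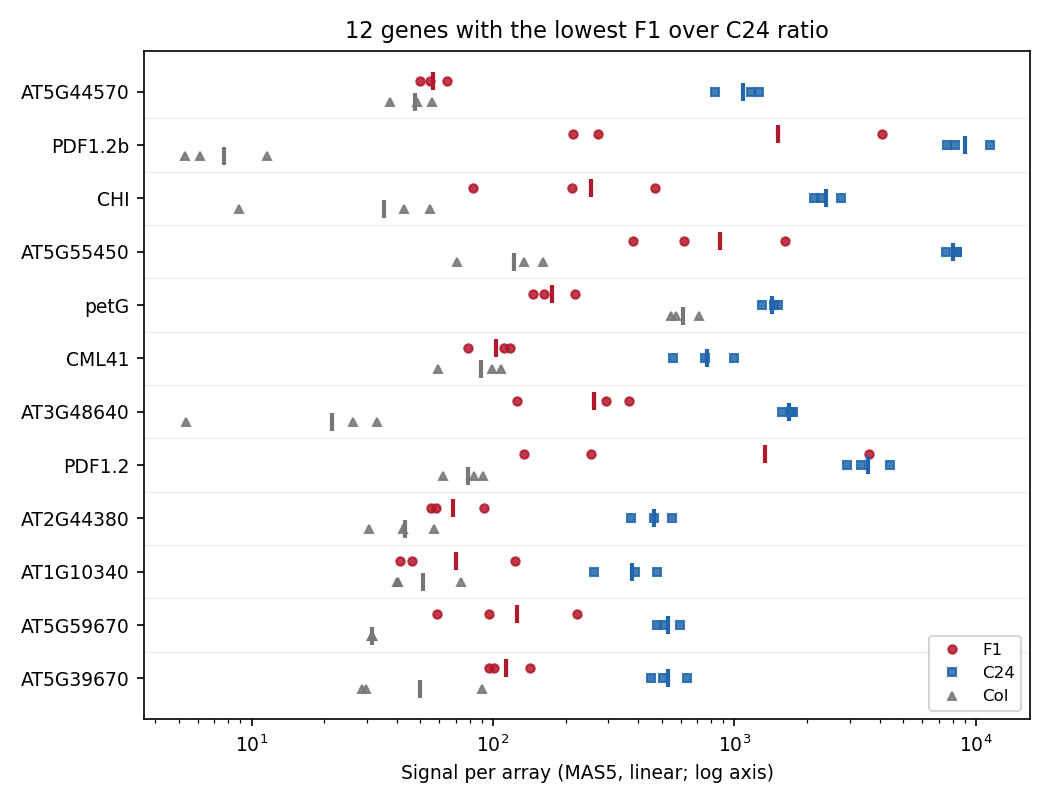
MAS5 signal on each array (log axis) for the 12 named genes with the lowest F1 over C24 ratio, with symbols as before and the upright mark at the group mean. F1 and C24 overlap for PDF1.2 alone, through F1 replicate 2, which is the highest F1 array for 11 of the 12, all but petG.

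F1 replicate 2 stood apart among the larger losses. Of the 193 probe sets at least 2-fold lower in F1, it was the highest of the 3 F1 arrays in 123 (63.7%), against 25.7% of the 257 at least 2-fold higher ones and 30.9% of all tested. Losses without this pattern included petG and ndhE, for which F1 replicate 3 was the highest. The replicate SD of log2 signal in those 193 had a median of 0.378 in F1 and 0.190 in C24. Without that array 10 of the 26 immune and antimicrobial genes fell, and 782 probe sets fell in all.

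Of the 6 largest falls in mean signal among genes at least 1.5-fold lower, those outside the 12 lowest ratios were AT2G41090, AT1G19960, AT5G20700 and the chloroplast gene atpA. AT2G41090 had 8486, 10628 and 6682 in F1 and 19946, 17309 and 17810 in C24, a difference of -1.12 ± 0.14 (SE, adjusted p = 4.93e-05). AT1G19960 had 2872, 5280 and 2930 in F1 and 8422, 7470 and 7615 in C24, and Col was far below both at 319 ± 100.3 (SD, n = 3). For both genes the groups did not overlap, and F1 replicate 2 was the highest F1 array.

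Apart from ECS1, few genes of the cell wall passed. Of 41 genes of wall structure, polysaccharide synthesis, remodelling and sensing, 4 rose, ECS1 among them, and 1 fell, with a median of 0.01, a share close to the 13.5% of all named genes. GH9B8, an endoglucanase of family 9, had 629.6, 501 and 477 in F1 and 272, 248 and 242 in C24, with a clear gap between groups and a difference of 1.07 ± 0.13 (SE, adjusted p = 5.88e-05). EXGT-A3, a xyloglucan endotransglucosylase that cuts and rejoins wall tethers, had 2011, 1767 and 1822 in F1 and 1342, 1511 and 1380 in C24, a difference of 0.40 ± 0.096 (SE, adjusted p = 0.0101). The endoglucanase gene GH9B7 rose by 0.27, a call lost without any 1 of the F1 or C24 arrays or of Col replicates 1 and 2 (adjusted p = 0.0544 to 0.167). PMEPCRF, a pectin methylesterase, fell: it had 443, 449 and 521 in F1 and 1102, 930.0 and 699.9 in C24, a difference of -0.93 ± 0.20 (SE, adjusted p = 0.00434). A second one, ATPMEPCRB, had -1.01 and an adjusted p of 0.0637; it passed with a replicate block (adjusted p = 0.0265), with 16 added to the signals (0.0391), with the F1 and C24 arrays alone (0.00621) and without Col replicate 3 (0.00942). None of the 7 cellulose and lignin genes passed, and 9 of 10 expansin and xyloglucan genes did not.

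The TBL family adds acetyl groups to wall polysaccharides. Of its 17 members tested, 3 rose and 1 fell, with a median of 0.00. TBL26 had 767, 544 and 762 in F1 and 465, 259 and 263 in C24 (difference 1.11 ± 0.22, SE), and TBL23 had 311, 264 and 270.4 in F1 and 164, 109.7 and 178 in C24 (difference 0.93 ± 0.20, SE). AT5G06700 rose by 0.63 and AT2G31110 fell by 0.85 on the log2 scale. Of 14 serine carboxypeptidase-like genes, scpl42 was the 1 that rose, while scpl46 (-0.49) and scpl29 (-0.38) fell at the edge of the threshold. Leaving out single arrays ended the call of scpl46 for 3 of the 9 (adjusted p = 0.0820 to 0.152) and that of scpl29 for 7 (adjusted p = 0.0550 to 0.1697).

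Genes of flavonoid synthesis and decoration rose in part, with 2 of 4 on the synthesis list (DFR and UF3GT) and UGT78D1 besides. UGT78D1 (AT1G30530), which attaches rhamnose to flavonols, had 810.4, 647 and 568 in F1 and 90.7, 124 and 83.6 in C24, all F1 arrays far above C24, a difference of 2.77 ± 0.16 (SE, adjusted p = 2.13e-08). Col was higher still at 1591 ± 134 (SD, n = 3). DFR, the dihydroflavonol reductase of anthocyanin synthesis, had 445, 326 and 438 in F1 and 173, 211 and 141 in C24, a difference of 1.21 ± 0.17 (SE, adjusted p = 0.000172). UF3GT, an anthocyanin glycosyltransferase, had 147, 124 and 154 in F1 and 93.4, 72.9 and 47.5 in C24, a difference of 1.04 ± 0.24 (SE, adjusted p = 0.0091). Of 24 UDP-glycosyltransferases tested, 6 rose and 3 fell (median -0.09). UGT85A2, UGT85A5 and UGT76C1 were among those that rose, with differences from 0.83 to 0.95. UGT72E1, UGT87A2 and UGT72B3 were those that fell, with differences from -1.19 to -0.93.

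Cytochrome P450 enzymes went down where they moved: 4 of 11 fell and none rose (median -0.21). CYP71B24 had 408, 487 and 458 in F1 and 834, 767 and 1053 in C24, a difference of -0.96 ± 0.15 (SE, adjusted p = 0.00043), and CYP71B36, CYP71B6 and CYP78A9 had differences from -0.90 to -0.58. GTR2, a transporter of glucosinolates, fell as well, with 315, 319 and 289 in F1 and 519, 457 and 476 in C24 (-0.66 ± 0.15, SE). It was the 1 gene to pass of the 3 tested on the glucosinolate list. Redox enzymes split, with 3 of 26 higher and 4 lower. MSRB9, a methionine sulphoxide reductase, fell with 189, 150.3 and 82.3 in F1 and 366, 393 and 551 in C24 (-1.70 ± 0.32, SE), while TRXF2, a chloroplast thioredoxin, rose by 0.56. Among 15 heat shock and co-chaperone genes, 2 fell and none rose. Hsp70-2 had 228, 46.2 and 123 in F1 and 398, 346 and 309.7 in C24, a difference of -1.68 ± 0.40 (SE, adjusted p = 0.0107), which was -1.06 without F1 replicate 2.

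Some of the other genes that rose respond to sugar supply or to sudden stress. The first list is of genes known to be switched on in darkness and repressed by sugar. All 6 genes of this list that were named and tested rose (median 1.59), and all 6 rose in each alternative setting; several were put on the list because earlier results of these data had shown them, so their direction is no independent evidence. AT2G20670 had 3163, 2076 and 2758 in F1 and 575, 453 and 383 in C24, with Col at 718 ± 97.9 (SD, n = 3), and its difference from C24 was 2.50 ± 0.17 (SE, adjusted p = 9.72e-08). AT3G15450 had 4511, 3662 and 4845 in F1 and 1257, 1428 and 1730 in C24, with Col at 1286 ± 295 (SD, n = 3), and its difference was 1.56 ± 0.16 (SE, adjusted p = 6.07e-06). In both genes each F1 array lay above each C24 array. AT3G07350, AT5G19120 and AT4G27450 rose by 2.05, 1.62 and 1.38 on the log2 scale. AT2G05540 rose to 906, 912 and 838 in F1, against 286, 654 and 378 in C24, and Col stood above both at 2086 ± 99.4 (SD, n = 3).

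The second list is of genes that respond within minutes to calcium signals, wounding or cold. Of its 8 genes 6 rose and CML41 fell (median 1.77); the same reservation on how the list was chosen applies. AT4G27280 had 5400, 5435 and 4865 in F1 and 1593, 1014 and 1331 in C24, with Col at 357 ± 56.9 (SD, n = 3), and its difference was 2.02 ± 0.15 (SE, adjusted p = 2.82e-07). ORA47 (AT1G74930), a transcription factor that activates jasmonate synthesis genes, had 727, 683 and 565 in F1 and 163, 189 and 160.1 in C24, with Col at 125 ± 29.4 (SD, n = 3). Its difference was 1.94 ± 0.19 (SE, adjusted p = 4.36e-06). STZ (AT1G27730), a zinc finger repressor induced by cold and other stresses, had 899, 1048 and 707 in F1 and 299.8, 269 and 298 in C24, with Col at 53.8 ± 17.7 (SD, n = 3), and a difference of 1.60 ± 0.21 (SE, adjusted p = 0.000103). For these genes the F1 arrays were well clear of C24. AR781, AT1G32920 and AT3G46600 rose too, with differences of 2.01, 2.01 and 1.05, whereas AT1G19380 did not pass. STZ was the 1 gene to pass of 5 cold and abscisic acid genes; COR15A, a chloroplast protectant made in the cold, had 8518, 9341 and 7651 in F1 and 7078, 9198 and 7499 in C24, ranges that overlapped.

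Smaller gains were found among signal peptides and transporters. Of 10 RALF and CLE peptide genes, 3 rose and none fell (median 0.32). CLE41, which holds the stem cells of the vascular tissue in division, had 932, 711 and 759 in F1 and 327, 284 and 300.0 in C24, a difference of 1.39 ± 0.14 (SE, adjusted p = 5.79e-06). RALFL31 had 249.7, 208 and 212 in F1 and 78.2, 153 and 101 in C24 (1.06 ± 0.23, SE), and RALFL34 rose by 0.44, a call lost without F1 replicate 1 or C24 replicate 3 (adjusted p = 0.0901 and 0.102). Of 11 sugar transporters 3 rose, all SWEET carriers: SWEET16 by 0.62, SWEET2 by 0.48 and SWEET17 by 0.32 on the log2 scale, with 1 to 3 passing over the alternative settings. SWEET16 lost its call without C24 replicate 1 (adjusted p = 0.0553), SWEET2 without 5 of the 9 arrays in turn (0.0518 to 0.154) and SWEET17 without 4 (0.0613 to 0.132). HAT2, an auxin-induced homeodomain factor, had 944, 889 and 826 in F1 and 545, 561 and 510.1 in C24 (0.72 ± 0.11, SE), and IAA18, an auxin repressor, rose by 0.53, though not without F1 replicate 2 or 3 (adjusted p = 0.0523 and 0.0551). TUA6 and TUB5, tubulins of the microtubules, rose by 0.59 and 0.43, 2 of 8 tubulin and actin genes. Of 9 ATG8 genes of autophagy, ATG8F rose (0.44) while ATG8G (-0.55) and ATG8D (-0.43) fell. Neither of these falls passed without C24 replicate 2 or 3, nor ATG8G without F1 replicate 1 and ATG8D without F1 replicate 2 (adjusted p = 0.0624 to 0.1002 over both).

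**Figure D4:**
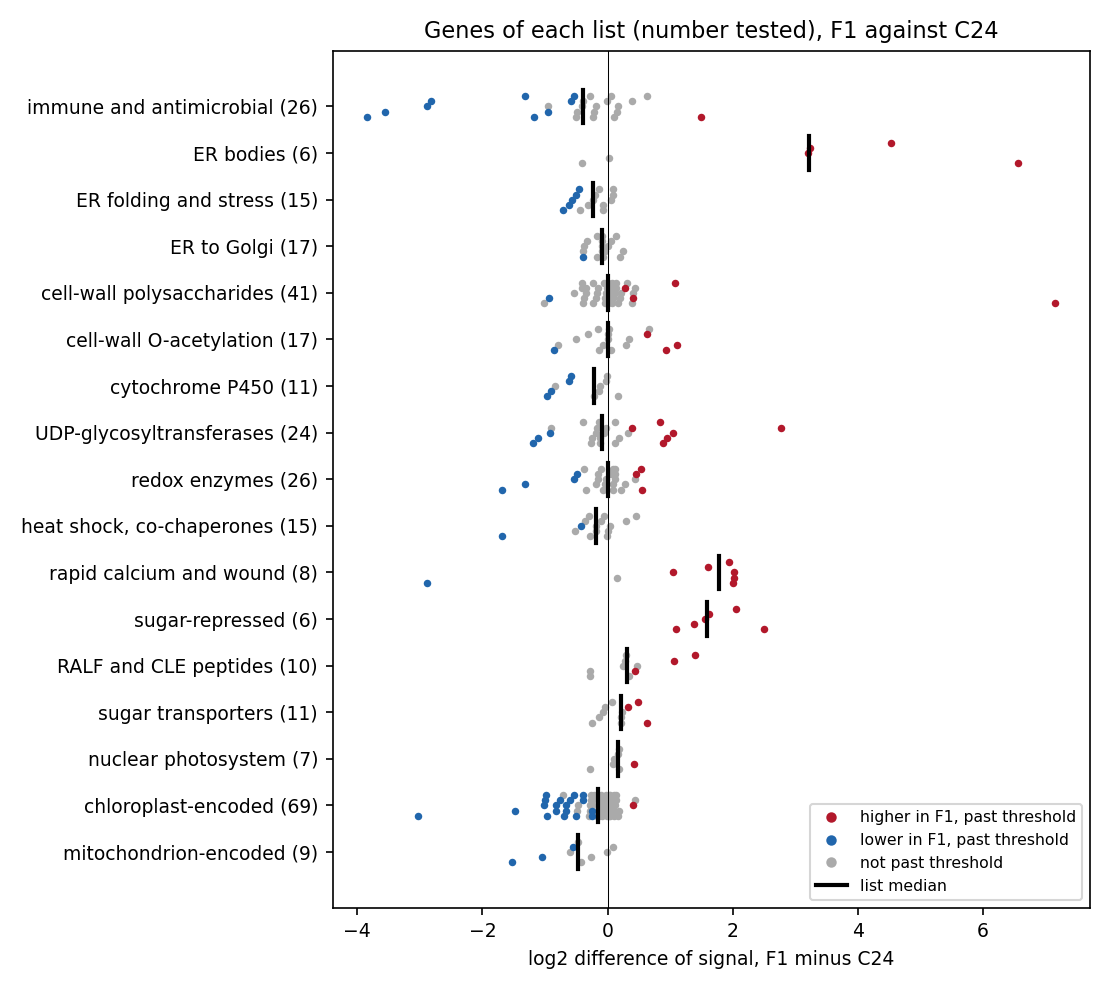
log2 difference of signal, F1 minus C24 (horizontal), for every tested gene of 17 lists, with the number of genes in brackets; red and blue points passed an adjusted p of 0.05, grey points did not, and the bar is the list's median. The lists of ER bodies, sugar-repressed and rapid calcium and wound genes have medians above 1, and the immune list has its long tail on the left.

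Few nuclear genes of photosynthesis passed on this scale. LHCB4.2 had 29137, 28855 and 28126 in F1 and 20909, 22530 and 21075 in C24, a difference of 0.42 ± 0.066 (SE, adjusted p = 0.000468), and was the 1 of 7 photosystem and antenna genes to rise. CHLM, a methyltransferase of chlorophyll synthesis, had 11383, 11721 and 11446 in F1 and 8291, 7264 and 8751 in C24 (0.51 ± 0.088, SE), while GSA1, which acts early in that pathway, fell by 0.38, a call lost without F1 replicate 2 or any 1 of the C24 arrays (adjusted p = 0.0615 to 0.1197). None of the 4 Calvin-Benson genes passed; SBPASE had 14224, 13864 and 14436 in F1 and 11866, 12600 and 12649 in C24 without overlap, and an adjusted p of 0.0693. After median centring of the arrays, 4 of the 7 photosystem genes and 2 of the 4 Calvin-Benson genes passed as higher, SBPASE and RCA among them, so these counts rested on the scaling. The 4 leaf markers are themselves genes of these lists.

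Transcripts encoded in the chloroplast were lower in part. All 69 such genes that the annotation named were tested, and 19 fell while 1 rose (median -0.15); 16 to 21 fell over the alternative settings. petG, a small subunit of the cytochrome b6f complex, fell most, with signals of 163, 147 and 218 in F1, against 1462, 1306 and 1508 in C24. The groups were far apart, by -3.04 ± 0.15 (SE, adjusted p = 4.39e-09), and Col lay between them at 610.3 ± 92.5 (SD, n = 3). ndhE, of the NDH complex, had 1331, 733 and 1459 in F1 and 3236, 2633 and 3678 in C24, a difference of -1.49 ± 0.20 (SE, adjusted p = 9.79e-05). atpF, of the ATP synthase, had 2237, 1946 and 1653 in F1 and 3833, 3551 and 4386 in C24, a difference of -1.02 ± 0.15 (SE, adjusted p = 0.000274). psbT and petL fell by similar amounts (-0.998 and -0.98). ccsA, needed for cytochrome assembly, was the 1 gene that rose, with 20411, 18629 and 16625 in F1 and 14084, 13921 and 13832 in C24 (0.41 ± 0.094, SE).

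The chloroplast losses were spread over the complexes. They comprised 5 of 15 photosystem II genes, 3 of 7 genes of photosystem I and its assembly and 3 of 6 of the ATP synthase. Also lower were 2 of 6 genes of the cytochrome b6f complex, 2 of 10 of the NDH complex and 2 of 15 of the ribosome. Of 6 other genes 2 fell, and none of the 4 RNA polymerase genes passed. Within the ATP synthase the differences ran from -1.02 to 0.14. Its subunit atpA had 6249, 7410 and 8612 in F1 and 12326, 11400 and 11417 in C24, a difference of -0.67 ± 0.11 (SE, adjusted p = 0.000467). Of 9 mitochondrion-encoded genes named on the array, 3 fell and none rose (median -0.48). ccb382 had 769.5, 772 and 695 in F1 and 2069, 2243 and 2145 in C24 (-1.53 ± 0.11, SE), and cox1, a subunit of cytochrome c oxidase, had 481, 541 and 513 in F1 and 1146, 1034 and 993 in C24 (-1.05 ± 0.13, SE). In nad4, of complex I, the fall was 0.55 on the log2 scale, a call lost without F1 replicate 2 or 3 or C24 replicate 1 (adjusted p = 0.0519 to 0.0913) and without an intensity trend (adjusted p = 0.0551).

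**Figure D5:**
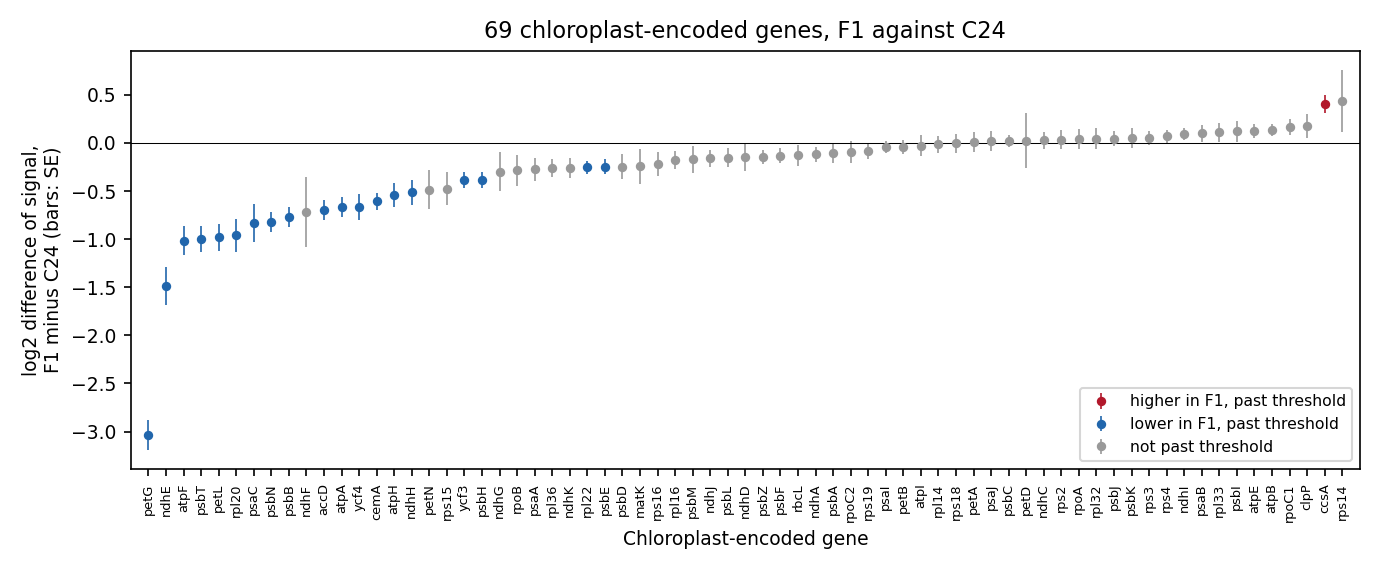
log2 difference of signal, F1 minus C24 (vertical, with SE bars), for the 69 chloroplast-encoded genes in order of the difference. The blue points that passed as lower run from petG at -3.04 to psbE, most points lie between -0.5 and 0.2, and ccsA is the 1 red point.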

How the data were processed

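Total RNA from rosette leaves was labelled with biotin and hybridised to 1-colour Affymetrix arrays, 1 per sample, per the labels' protocols. The deposited values are intensity values on a linear scale. Per the submitters' processing notes they come from MAS5, with no version or settings named. MAS5 gives 1 signal per probe set and scales each array by 1 factor, so a change in total RNA is invisible. The number of arrays limits the precision. The p-values measure the spread between these samples only.

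The table held 22810 probe sets, 64 of them controls. The platform annotation paired 13513 with 1 gene, 503 with several and 8730 with none, and 13436 matched RefSeq (assembly TAIR10.1), used for names and gene order. A probe set unnamed here is not one without a gene; of the 7314 genes tested, 6243 carry a locus code alone. Signals were log2-transformed. A filter at the 40th percentile of mean log2 signal over all arrays, Col included (6.49, or a linear 89.9), left 13648 probe sets. In limma 3.58.1 (R 4.3.3), lmFit took the 3 group means over the 9 arrays and eBayes an intensity trend; p-values are two-sided, with the Benjamini-Hochberg method over these probe sets and a threshold of 0.05. The fit was tested on simulated data. For 39 genes with several probe sets the brightest was used.

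The members, lists and rules were chosen with earlier results of these data known. Of 61 lists, 15 were added after reading which genes the annotation names, and the patterns of the defensin, peroxidase and wall protein lists were corrected after unrelated genes were seen to match. Genes were named by rule: the 12 highest and 12 lowest log2 differences among genes past the threshold, the 6 largest differences of mean signal in each direction among genes past the threshold and at least 1.5-fold, and in each list up to 5 genes past the threshold in each direction or, in lists of 6 or fewer, any tested gene. The alternatives were quantile normalization, median centring, no filter, a 60th-percentile filter, a floor of 32, an added signal of 16, no intensity trend, a replicate block, the 6 F1 and C24 arrays alone, and leaving out each array. Groups of 3 are too small for a test of single outlying samples, so none was made.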

Additional observations from a re-analysis of the deposited data

How the results depend on the processing

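The count of 1951 probe sets past the threshold stayed within 1.5 times under each of the 18 alternatives, at 1977 after quantile normalization, 1965 after median centring, 1708 without the filter, 1590 with the 60th-percentile filter, 1983 with a floor of 32, 1986 with 16 added, 1566 without an intensity trend and 1885 with the 6 arrays of F1 and C24 alone. Leaving out 1 array gave 1357 to 1955; the lowest was without C24 replicate 1, where 784 were higher and 573 lower, so that the lower count, 921 with all arrays, ran from 573 to 933 over the arrays left out. Past 2-fold there were 450 probe sets, and 232 under the 60th-percentile filter, which tests fewer. Leaving out an array removes replicates, and the cause of the shift in the lower count was not tested. The median difference of all probe sets was -0.02, and 0.023 after median centring, which moved the share of higher calls to 63.3%, against 52.8% without it. Same-numbered F1 and C24 arrays had deviations from their group means that correlated at 0.110, 0.0892 and 0.117. Differently numbered arrays correlated at -0.069 to -0.039, so each array correlated best with its own number. Deviations from a group mean cancel within the group, so the negative values follow from the positive ones and are no separate observation. Whether same-numbered samples shared a batch was not tested, and the fit of the report treated them as unpaired. With a replicate block 2255 probe sets passed, 1176 higher and 1079 lower. A tally over genes with printed values left out LHCB4.3, which passed in 1 alternative (adjusted p = 0.0398). In that tally 2079 of the gene-by-alternative values kept their direction and side of the threshold, 123 lost significance, 11 gained it and 5 turned sign. Those 5 were in genes that did not pass with the settings of the report: LHCB4.1 was -0.021 after quantile normalization, JAL34 ran from -0.011 to 0.064 and PDIL5-1 from -0.00056 to 0.14 when single arrays were left out. PDF1.2 also missed the threshold without an intensity trend (adjusted p = 0.0889) and with the F1 and C24 arrays alone (adjusted p = 0.0538). Calls were lost most often for GH9B7 and scpl29 (12 alternatives each), PRA1.A1 (11), APL3 (8), scpl46 and SWEET2 (7 each) and GRX480 (6). Signals under about 32 limit the folds of genes that C24 barely showed.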

Other observations

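Genes for the breakdown of branched-chain amino acids and for the electron transfer flavoprotein that takes up its electrons were read as a list drawn up after ETFBETA and ALDH6B2 had been seen among the genes that rose, so its count supports nothing by itself. ETFBETA, a subunit of that flavoprotein, had signals of 489, 490 and 600 in F1 and 161, 133 and 187 in C24, a difference of 1.72 ± 0.15 (SE, adjusted p = 1.84e-06). ALDH6B2, a methylmalonate semialdehyde dehydrogenase, had 792, 1165 and 1112 in F1 and 411, 436 and 393 in C24, a difference of 1.29 ± 0.14 (SE, adjusted p = 1.22e-05). No F1 array overlapped C24 in these 2 genes. The other 7 members, ETFALPHA and IVD among them, had differences from -0.30 to 0.57 and did not pass. Col means were 741 ± 78.7 for ETFBETA and 1576 ± 126 for ALDH6B2 (SD, n = 3 each).

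Among 2186 pairs of neighbouring genes in which both were tested, both passed in 50 pairs: 25 with both higher, 10 with both lower and 15 with 1 higher and 1 lower. Of all named genes, 7.51% were higher and 5.99% lower. Whether neighbours passed together more often than unrelated genes was not tested. The following pairs were picked after their values were seen. AT5G45500 and AT5G45510 were both higher, with differences of 5.73 and 1.77. AT4G38540 and AT4G38550 were both lower, with -1.74 and -1.62. CHI fell by 3.56 on the log2 scale beside AT2G43560, which rose by 0.39, and 2A6 rose by 4.37 beside AT1G03400, which fell by 0.69. AT3G47480 fell by 2.21 while its neighbour AT3G47490 rose by 0.74.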
